A study of Mus musculus with 21 samples.

Results

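The genes of sterol and fatty acid synthesis were followed across the cortex and hippocampus of mice that make poly-GA in excitatory neurons. The set was chosen by gene symbol and holds 35 of the 64361 genes in the count table, namely 7 genes of the early mevalonate steps, 11 of the squalene and late sterol steps, 11 of fatty acid and lipid synthesis and 6 regulators. All 35 symbols matched 1 row each. GA-Camk2a mice carry a floxed transgene for poly-GA, a dipeptide repeat protein translated from the C9orf72 repeat of ALS. A Camk2a-Cre driver switches the transgene on in excitatory neurons. The lines were kept on C57BL/6J, and per the methods the animals came from few litters. The controls are labelled only "ctrl", so which of these alleles they carried is not given for these libraries. The study's legend for stained sections names the controls of this line "Camk2a". The sex of the animals is not given in the sources used here. All mice were 30 to 40 weeks old. Bulk prime-seq, which counts the 3′ ends of polyadenylated RNA, was run on 5 control and 6 GA-Camk2a cortex libraries and on 4 control and 6 GA-Camk2a hippocampus libraries. The 21 libraries came from 11 mice, of which 10 gave a library from each tissue.

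Cholesterol is built from acetyl-CoA through mevalonate, farnesyl diphosphate and squalene to lanosterol, which further enzymes trim to cholesterol. The transcription factors SREBP2, encoded by Srebf2, and SREBP1, encoded by Srebf1, drive the genes of sterol and of fatty acid synthesis respectively, with overlap. When sterols are plentiful, the INSIG proteins hold SREBP and its escort SCAP in the endoplasmic reticulum, and Insig1 is itself an SREBP target. The brain makes nearly all of its own cholesterol, in oligodendrocytes for myelin and in astrocytes for supply to neurons, because plasma lipoproteins do not cross the blood-brain barrier.

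The promoters of the 5 members that differed between genotypes are shown, since SREBP acts on its targets through such sequences. RefSeq windows on GRCm38.p6 were found for 28 of the 35 members, and the 250 bases before each transcription start are printed 5′ to 3′. Capitals mark matches on either strand to TCACNCCAC, the core of a sterol regulatory element, to CCAAT, the box bound by NF-Y, or to the E-box CACGTG. On the minus strand CCAAT reads ATTGG. The matches in these windows do not overlap each other. Srebf1 has 3 windows, of which the most upstream and the most downstream are shown. Counts of 3′ ends do not tell its starts apart.
Hmgcs1, chr13:119690101-119690350, plus strand: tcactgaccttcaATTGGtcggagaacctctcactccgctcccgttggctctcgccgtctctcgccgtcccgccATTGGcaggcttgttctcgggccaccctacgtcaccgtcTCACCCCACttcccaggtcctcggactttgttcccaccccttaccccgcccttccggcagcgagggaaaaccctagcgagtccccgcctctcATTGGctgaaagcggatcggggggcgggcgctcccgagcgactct
Nsdhl, chrX:72918271-72918520, plus strand: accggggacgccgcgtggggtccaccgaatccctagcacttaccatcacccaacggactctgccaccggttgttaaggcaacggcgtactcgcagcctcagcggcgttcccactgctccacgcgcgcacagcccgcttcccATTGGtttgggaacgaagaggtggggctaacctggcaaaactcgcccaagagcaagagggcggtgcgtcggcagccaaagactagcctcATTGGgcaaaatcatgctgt
Elovl6, chr3:129532136-129532385, plus strand: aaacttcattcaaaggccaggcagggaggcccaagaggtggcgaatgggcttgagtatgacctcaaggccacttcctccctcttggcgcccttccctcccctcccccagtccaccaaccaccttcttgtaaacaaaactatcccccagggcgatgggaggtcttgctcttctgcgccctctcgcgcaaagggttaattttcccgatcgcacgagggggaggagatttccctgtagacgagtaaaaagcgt
Insig1, chr5:28071162-28071411, plus strand: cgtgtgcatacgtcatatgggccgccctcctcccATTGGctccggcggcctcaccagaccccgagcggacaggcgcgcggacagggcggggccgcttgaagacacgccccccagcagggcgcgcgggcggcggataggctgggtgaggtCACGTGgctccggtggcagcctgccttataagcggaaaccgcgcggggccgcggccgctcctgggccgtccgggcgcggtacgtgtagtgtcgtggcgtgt
Srebf1 (upstream start), chr11:60222582-60222831, minus strand: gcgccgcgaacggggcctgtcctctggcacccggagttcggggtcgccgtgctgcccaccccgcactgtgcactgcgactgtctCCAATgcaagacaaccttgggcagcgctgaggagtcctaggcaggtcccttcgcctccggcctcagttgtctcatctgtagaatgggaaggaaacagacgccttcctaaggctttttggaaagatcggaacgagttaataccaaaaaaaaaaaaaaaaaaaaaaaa
Srebf1 (downstream start), chr11:60210472-60210721, minus strand: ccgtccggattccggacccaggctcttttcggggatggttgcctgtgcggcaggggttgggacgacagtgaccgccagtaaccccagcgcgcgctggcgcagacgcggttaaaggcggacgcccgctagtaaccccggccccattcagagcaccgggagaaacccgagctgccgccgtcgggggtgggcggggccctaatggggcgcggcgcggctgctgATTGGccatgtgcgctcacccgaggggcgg

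TCACNCCAC was present in the windows of 1.22% of 27025 genes and in 1 of 28 members. That member was Hmgcs1, with the match TCACCCCAC at bases 137 to 129 before the start. The CCAAT box was present in the windows of 37.5% of genes and in 21 of 28 members. By step these were 9 of 9 squalene and late sterol genes, 5 of 6 early mevalonate genes, 4 of 5 regulators and 3 of 8 fatty acid genes. CACGTG was present in 6.86% of genes and in 6 of 28 members, Insig1 among them. The printed Elovl6 window holds none of the 3 motifs. These matches describe letters in a window and not bound sites.

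The shallowest library held 1048201 counts, the deepest 5888102, and the median was 1975173. Member levels are given as CPM, the counts scaled to a common library total, and because only 3′ ends were counted, levels were compared between libraries but not between genes. The tissue labels were checked on marker genes. All 5 hippocampus markers were higher in hippocampus than in cortex in control mice. Of the 4 cortex markers, Cux2 and Tbr1 were lower in hippocampus, at −1.40 and −1.21 on the log2 scale, and Fezf2 and Rorb were at 0.50 and 1.01. Rorb was above 500 CPM in 4 libraries, namely hippocampus of control mouse 11 (1455 CPM) and of GA-Camk2a mice 16 (5303 CPM) and 30 (4414 CPM) and cortex of GA-Camk2a mouse 41 (612 CPM). Cux2 and Tbr1 were not raised in the hippocampus libraries of high Rorb. Over all hippocampus libraries Cux2 held 26.3 to 44.0 CPM and Tbr1 12.4 to 23.5 CPM, below their control cortex ranges of 49.6 to 106 and 35.4 to 54.9 CPM, and Fezf2 held 18.4 to 36.8 CPM. Counts of members past the threshold are therefore also given without these 4 libraries, a choice made after seeing the data. The GFP row, which tags the transgene, held 17 counts over all libraries, from 0 to 4 per library, with 2 each in cortex of control mice 37 and 38, and was too sparse to check the genotype labels.

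Cell type markers also differed with genotype. Excitatory neuron markers summed to 1835 to 2311 CPM in control and 1178 to 1630 CPM in GA-Camk2a cortex, with 3 of 5 lower, and to 2043 to 2587 and 1081 to 1459 CPM in hippocampus, with 5 of 5 lower. Astrocyte markers summed to 2248 to 3037 and 3295 to 4772 CPM in cortex (3 of 6 higher) and to 2685 to 3179 and 4147 to 5649 CPM in hippocampus (4 of 6 higher). Microglia markers summed to 156 to 188 and 291 to 484 CPM in cortex and to 144 to 159 and 243 to 378 CPM in hippocampus, with 4 of 6 higher in each tissue. Markers of oligodendrocytes, which need much sterol for myelin, overlapped between genotypes at 2127 to 2423 and 2276 to 3051 CPM in cortex (2 of 7 higher) and at 2119 to 2757 and 1960 to 4185 CPM in hippocampus (1 of 7 higher). Inhibitory neuron markers summed to 301 to 365 and 302 to 417 CPM in cortex (0 of 3 past the threshold) and to 266 to 290 and 308 to 447 CPM in hippocampus (1 of 3 higher). Striatum markers in cortex libraries summed to 753 to 1258 CPM in controls and 225 to 524 CPM in GA-Camk2a mice, with 6 of 6 lower. No gene of these lists was at 0 in any group. In bulk tissue, fewer cells of a type, less RNA per cell and a different extent of dissection cannot be told apart. The part of these shifts in the results below was not tested.

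To ask which steps of lipid synthesis differ with neuronal poly-GA, GA-Camk2a cortex was compared with control cortex. Of the 34 members that passed the filter on low counts, 4 were lower and 1 was higher in GA-Camk2a mice (edgeR, adjusted p under 0.05), or 14.7%, against 12.5% of all 13058 genes tested, of which 6.17% were lower and 6.35% higher. The count is thus near the background. The lower members were Hmgcs1, Nsdhl, Insig1 and Elovl6 and the higher member was Srebf1. At an unadjusted p under 0.05 there were 10 of 34 members, against 25.9% of all genes. Fold changes were below 0 for 23 of 34 members (67.6%), against 50.7% of all genes.

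By step, the median log2 fold change in cortex was −0.20 for 6 early mevalonate genes and −0.19 for 11 squalene and late sterol genes, against −0.01 for all genes tested. It was −0.01 for 11 fatty acid genes and −0.10 for 6 regulators. Of the 17 sterol synthesis genes tested, 14 had a fold change below 0 (82.4%) and 2 passed the threshold. No member had groups without overlap in cortex, where 6.17% of all genes did.

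**Figure D1:**
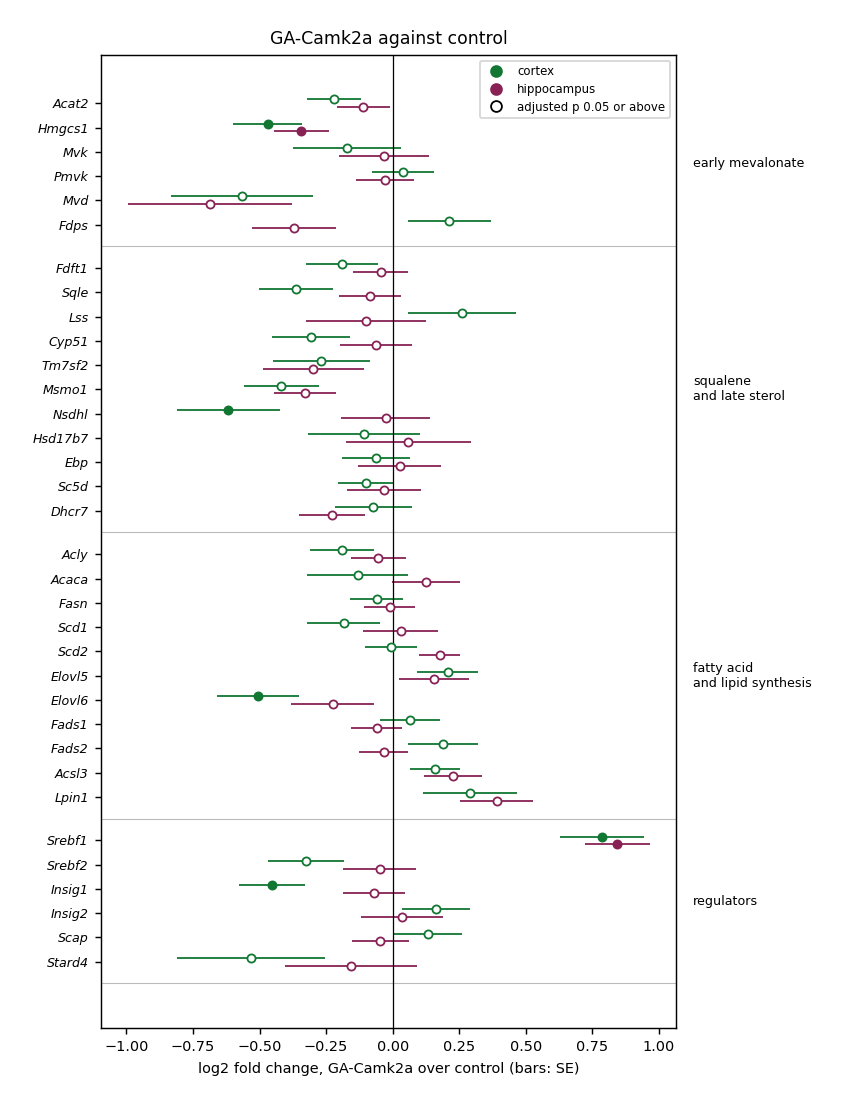
Log2 fold change of the 34 tested members in GA-Camk2a against control mice (x axis) with standard errors, in cortex (green) and hippocampus (purple), grouped by step. Filled points have an adjusted p under 0.05, and Srebf1 lies farthest to the right in both tissues, at 0.79 and 0.84.

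The early mevalonate gene with the lowest adjusted p in cortex was Hmgcs1, the cytosolic HMG-CoA synthase. Its level in control cortex was 156, 127, 158, 132 and 143 CPM in mice 11, 20, 31, 37 and 38, and in GA-Camk2a cortex it ranged from 81.7 to 145 CPM with a median of 94.3. All GA-Camk2a libraries except that of mouse 41 lay below every control. Hmgcs1 fell by 0.47 ± 0.13 on the log2 scale (SE, edgeR, adjusted p = 0.0181). It lost the call without control 31 (adjusted p = 0.0523) and within batch 1 or batch 2 alone, where the fold changes were −0.54 and −0.35. Without mouse 41, the cortex library with raised Rorb, it was −0.61 (edgeR, adjusted p = 0.000437).

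The other early genes did not pass. Mvd, the decarboxylase that forms isopentenyl diphosphate, differed by −0.57 ± 0.27 (edgeR, adjusted p = 0.178) at mean levels of 6.43 ± 3.49 CPM (SD, n = 6) in GA-Camk2a and 10.0 ± 2.54 CPM (SD, n = 5) in control cortex. Acat2, the thiolase of the entry step, was at −0.22 ± 0.10, Mvk, mevalonate kinase, at −0.17 ± 0.20, and Pmvk, phosphomevalonate kinase, at 0.04 ± 0.12. Fdps, farnesyl diphosphate synthase, was at 0.21 ± 0.16. Its 5 control libraries held 184, 277, 156, 252 and 203 CPM and the GA-Camk2a libraries 173 to 316 CPM, so the groups overlapped widely. Idi1, an isomerase of the same segment, was under the filter, at group means of 2.64 to 3.35 CPM over the 4 groups.

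Among the squalene and late sterol genes Nsdhl, a dehydrogenase that helps to remove the methyl groups of lanosterol, fell. Control cortex held 31.5, 29.1, 28.2, 21.3 and 33.2 CPM and GA-Camk2a cortex 9.89 to 25.2 CPM with a median of 18.2. Only control 37 lay within the GA-Camk2a range. The fold change was −0.62 ± 0.19 on the log2 scale (edgeR, adjusted p = 0.0377). The call was lost when any 1 of 8 of the 11 libraries was left out, controls 11, 20, 31 and 38 and GA-Camk2a mice 16, 23, 30 and 34, with adjusted p up to 0.119, while the fold changes without 1 library stayed between −0.77 and −0.51. Within batch 1 and batch 2 alone it was at −0.70 and −0.43, without passing, and it also missed without the batch term (adjusted p = 0.0632).

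Msmo1, the methylsterol monooxygenase that acts beside Nsdhl, was at −0.42 ± 0.14 (edgeR, adjusted p = 0.0538) and Sqle, squalene epoxidase, at −0.36 ± 0.14 (edgeR, adjusted p = 0.0926). For both genes the GA-Camk2a library of mouse 41 was above every control, at 139 and 58.8 CPM. Without that library both passed, Msmo1 at −0.58 (edgeR, adjusted p = 0.000517) and Sqle at −0.52 (edgeR, adjusted p = 0.00643), and 6 members were lower and 1 higher, in a fit that called 11% of all genes. Cyp51, the lanosterol demethylase, was at −0.31 ± 0.15, Tm7sf2, a sterol reductase, at −0.27 ± 0.18, and Fdft1, squalene synthase, at −0.19 ± 0.14. Hsd17b7, Sc5d, Dhcr7 and Ebp, which complete the late steps, lay between −0.11 and −0.06, and Lss, lanosterol synthase, was the only one above 0, at 0.26 ± 0.20.

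Of the regulators, Srebf1 rose. Control cortex held 15.3, 11.8, 31.5, 21.3 and 23.6 CPM in mice 11, 20, 31, 37 and 38, and GA-Camk2a cortex held 31.5 to 48.6 CPM with a median of 37.2. Control 31 and GA-Camk2a mouse 35 met at 31.5 CPM, and apart from this pair all GA-Camk2a libraries were above all controls. The fold change was 0.79 ± 0.16 on the log2 scale (edgeR, adjusted p = 0.00188), at 0.73 in batch 1 and 0.92 in batch 2. No left-out library ended the call, which was lost within batch 2 alone (adjusted p = 0.123).

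Insig1, which retains SREBP when sterols are high, moved the other way. Its levels were 83.0, 95.4, 132, 115 and 126 CPM in control cortex and 63.8 to 103 CPM in GA-Camk2a cortex with a median of 79.2. The 3 highest libraries were controls, and the ranges overlapped between 83.0 and 103 CPM. It fell by 0.45 ± 0.12 on the log2 scale (edgeR, adjusted p = 0.0172). It lost the call without control 31, 37 or 38, with adjusted p of 0.0564, 0.0686 and 0.0536, and within either batch alone, where it was at −0.35 and −0.67. It also missed without the batch term (adjusted p = 0.0519).

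Srebf2, the main driver of sterol genes, was at 31.5, 23.6, 42.5, 30.4 and 27.4 CPM in control cortex and at 18.0 to 29.9 CPM in GA-Camk2a cortex with a median of 25.2. Its groups overlapped, and the fold change of −0.32 ± 0.14 did not pass (edgeR, adjusted p = 0.149). Stard4, a sterol transfer protein, was at −0.53 ± 0.28, and Insig2 and Scap were at 0.16 ± 0.13 and 0.13 ± 0.13. Srebf1 and Srebf2, which encode related factors, thus had fold changes of opposite sign in cortex, of which only that of Srebf1 passed.

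Of the fatty acid genes Elovl6, an elongase for chains of palmitate length, fell in cortex. Controls held 30.5, 26.3, 32.6, 32.9 and 23.3 CPM and GA-Camk2a libraries 15.3 to 24.8 CPM with a median of 19.6. GA-Camk2a mouse 41 alone exceeded a control, that of mouse 38. The fold change was −0.51 ± 0.15 (edgeR, adjusted p = 0.0332). The call was lost without any 1 of 8 of the 11 libraries, controls 11, 31 and 37 and GA-Camk2a mice 16, 23, 30, 34 and 35, with adjusted p up to 0.106, and also with DESeq2 (adjusted p = 0.0674), limma-voom (adjusted p = 0.0504) and no filter (adjusted p = 0.0508), and within either batch alone (−0.42 and −0.72). The 10 other fatty acid genes ranged from −0.19 to 0.29. Acly, Acaca, Fasn, Scd1 and Scd2, which make and desaturate the chains and are classical SREBP1 targets, were at −0.19 ± 0.12, −0.13 ± 0.19, −0.06 ± 0.10, −0.18 ± 0.14 and −0.01 ± 0.10. Elovl5, Fads1, Fads2, Acsl3 and Lpin1, of chain elongation, desaturation, activation and glycerolipid synthesis, lay between 0.07 and 0.29.

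**Figure D2:**
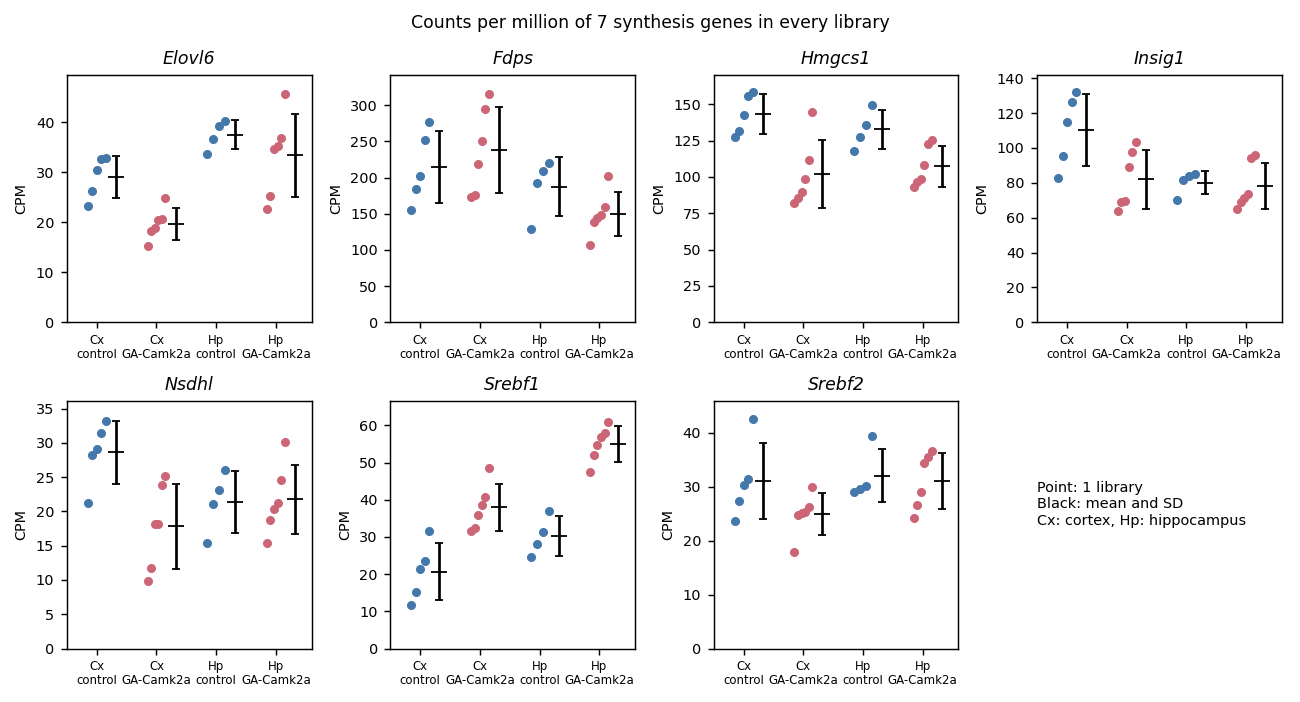
CPM of 7 members (y axes, from 0) in each library of the 4 groups (x axis), with the mean and SD beside the points. Srebf1 is higher in GA-Camk2a libraries of both tissues, and Hmgcs1, Nsdhl, Insig1 and Elovl6 are lower on average in GA-Camk2a cortex, with overlapping points.

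In hippocampus the same genotype comparison gave 1 lower and 1 higher member of 34 tested (edgeR, adjusted p under 0.05), or 5.88%, against 10.9% of all 14884 genes, with 5.97% lower and 4.97% higher. These were Hmgcs1 and Srebf1, which had also passed in cortex. At an unadjusted p under 0.05 there were 7 members, against 24.7% of all genes. Fold changes were below 0 for 24 of 34 members (70.6%), against 47.8% of all genes. The median log2 fold change was −0.23 for early mevalonate genes, −0.06 for squalene and late sterol genes, 0.03 for fatty acid genes and −0.05 for regulators, against 0.02 for all genes. Of the 17 sterol genes, 15 were below 0 (88.2%), and 1 passed.

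Hmgcs1 was at 150, 128, 136 and 118 CPM in hippocampus of control mice 11, 20, 31 and 37, and at 92.9 to 125 CPM in GA-Camk2a hippocampus with a median of 103. Mice 30 and 41 were the GA-Camk2a libraries above the lowest control. It fell by 0.34 ± 0.10 on the log2 scale (edgeR, adjusted p = 0.0441), at −0.38 in batch 1 and −0.32 in batch 2. The call was lost without any 1 of 7 of the 10 libraries, controls 11, 20 and 31 and GA-Camk2a mice 16, 23, 34 and 35, with adjusted p from 0.0593 to 0.158, and without the 3 hippocampus libraries of high Rorb (adjusted p = 0.0805). An antisense gene overlaps its exons but averaged 0.273 CPM.

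The other early genes of hippocampus were all below 0 without passing. Mvd was at −0.69 ± 0.31 (edgeR, adjusted p = 0.18), Fdps at −0.37 ± 0.16 (edgeR, adjusted p = 0.152), Acat2 at −0.11 ± 0.10, and Mvk and Pmvk at −0.03 ± 0.17 and −0.03 ± 0.11. For Fdps the controls held 128, 209, 193 and 220 CPM and the GA-Camk2a libraries 107 to 202 CPM with a median of 146. Control 11 lay low among the GA-Camk2a libraries, and without it Fdps passed at −0.51 (edgeR, adjusted p = 0.0487).

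Among the late sterol genes Msmo1 came closest, at −0.33 ± 0.12 (edgeR, adjusted p = 0.0861). It passed without GA-Camk2a mouse 41, at −0.41 (edgeR, adjusted p = 0.0341). Tm7sf2 was at −0.30 ± 0.19 and Dhcr7 at −0.23 ± 0.12. The other 8, Fdft1, Sqle, Lss, Cyp51, Nsdhl, Hsd17b7, Ebp and Sc5d, lay between −0.10 and 0.06. Nsdhl held 23.1, 21.1, 15.4 and 26.0 CPM in controls and 15.4 to 30.2 CPM in GA-Camk2a mice with a median of 20.8. Its groups covered nearly the same range, with a fold change of −0.03 ± 0.17.

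Srebf1 held 37.0, 24.6, 31.3 and 28.0 CPM in hippocampus of control mice 11, 20, 31 and 37 and 47.5 to 61.0 CPM in GA-Camk2a mice with a median of 55.7. Every GA-Camk2a library was above every control, which held for 9.62% of all genes tested in either direction. The fold change was 0.84 ± 0.12 on the log2 scale (edgeR, adjusted p = 0.000399), with 0.74 in batch 1 and 0.95 in batch 2. It passed without each single library and without the libraries of high Rorb, and lost the call only within batch 1 alone (adjusted p = 0.138).

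Srebf1 shares 109 exonic bases with Rai1 on the opposite strand, and whether counting used strand is not given in the sources used here. Rai1, a nuclear gene regulator, averaged 21.6 CPM, fell in cortex by 0.70 ± 0.17 on the log2 scale (edgeR, adjusted p = 0.00874), but was at −0.08 ± 0.14 in hippocampus (edgeR, adjusted p = 0.784). The part of shared reads in the Srebf1 counts was not tested. Fdft1 overlaps Ctsb, a lysosomal protease gene that rose by 0.69 in cortex (edgeR, adjusted p = 3.59e-05) and by 0.63 in hippocampus (edgeR, adjusted p = 0.000653), and Cyp51 overlaps Akap9, a scaffold protein gene that fell in cortex by 0.45 (edgeR, adjusted p = 0.0101). On the same strand, where strand use could not separate the reads, Tm7sf2 shares 532 exonic bases with Vps51 (9.53 CPM on average, at 0.54 ± 0.21 in cortex, edgeR, adjusted p = 0.104), Fdps 197 with Gm43738, which was not measured here, and Acsl3 140 with Utp14b (9.81 CPM). Counts of Fdft1, Cyp51, Tm7sf2, Fdps and Acsl3 are uncertain to the extent that such reads were shared, which was not tested.

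The other regulators stayed near 0 in hippocampus. Insig1 held 84.8, 70.1, 81.5 and 83.9 CPM in controls and 65.2 to 96.1 CPM in GA-Camk2a mice with a median of 72.5, a fold change of −0.07 ± 0.12. Srebf2 held 30.2, 29.6, 39.3 and 29.0 CPM in controls and 24.2 to 36.7 CPM in GA-Camk2a mice with a median of 31.7, a fold change of −0.05 ± 0.14. The groups of both genes overlapped. Insig2, Scap and Stard4 were at 0.03 ± 0.16, −0.05 ± 0.11 and −0.16 ± 0.25.

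Lpin1, the phosphatidate phosphatase of glycerolipid synthesis, held 16.6, 20.2, 15.4 and 20.3 CPM in control and 22.7 to 30.1 CPM in GA-Camk2a hippocampus with a median of 24.3. Its groups did not overlap, but the fold change of 0.39 ± 0.14 missed the threshold (edgeR, adjusted p = 0.0809). Elovl6 held 40.3, 36.7, 39.3 and 33.7 CPM in controls and 22.7 to 45.7 CPM in GA-Camk2a mice with a median of 34.98. Its groups overlapped, at −0.22 ± 0.16 (edgeR, adjusted p = 0.407), and it was at 0.02 without the libraries of high Rorb. Scd2, a stearoyl-CoA desaturase, was at 0.18 ± 0.08 (edgeR, adjusted p = 0.167), and Acsl3, Elovl5 and Acaca were at 0.23 ± 0.11, 0.16 ± 0.13 and 0.13 ± 0.13. Fads1, Acly, Fads2, Fasn and Scd1 lay between −0.06 and 0.03.

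**Figure D3:**
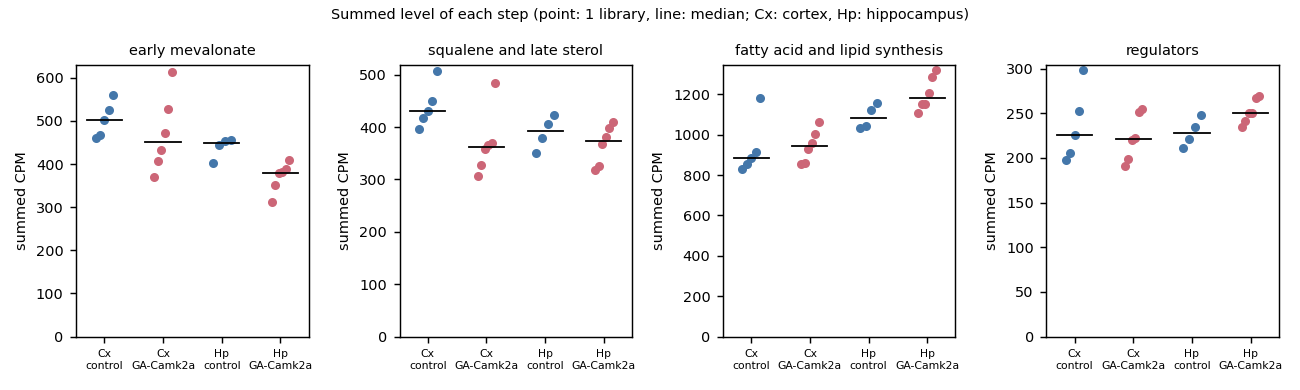
Summed CPM of the members of each step (y axes, from 0) in every library of the 4 groups (x axis), with a line at the median. Early mevalonate genes of hippocampus summed to 402 to 455 CPM in controls and 312 to 409 CPM in GA-Camk2a mice, and fatty acid genes to 1033 to 1157 and 1108 to 1319 CPM. Genes of high CPM weigh most in such sums, such as Scd2, at 437 to 626 CPM, and Fdps, at 107 to 220 CPM, in hippocampus.

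Whether the genotype effect differs between the tissues was tested as an interaction, hippocampus effect minus cortex effect, over all 21 libraries. None of the 34 members passed with edgeR (0 of 34, against 0.4% of 14751 genes). The count was also 0 with limma-voom, with the mouse as a block and without the libraries of high Rorb. DESeq2 gave 0 as well, but it assigned an adjusted p to only 8171 genes, so some members may have gone untested. With edgeR, 2 members were at an unadjusted p under 0.05, against 10% of all genes. The lowest adjusted p was that of Fdps, with an interaction of −0.59 ± 0.25 (edgeR, adjusted p = 0.399). It came from a cortex effect of 0.21 and a hippocampus effect of −0.37, and it was the only member to pass when the filter on low counts was dropped (adjusted p = 0.0172). Nsdhl, called in cortex alone, had an interaction of 0.59 ± 0.27 (edgeR, adjusted p = 0.465), and Insig1, also called in cortex alone, 0.36 ± 0.18 (edgeR, adjusted p = 0.512). Fads2, the fatty acid gene with the lowest adjusted p, had −0.25 ± 0.17 (edgeR, adjusted p = 0.649), Elovl6 0.26 ± 0.22 and Srebf1 0.03 ± 0.21. A call in cortex and not in hippocampus was therefore not shown to be a difference between the tissues for any of them.

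The baseline difference between the tissues was read from the 9 control libraries. In hippocampus 3 of 34 members were lower than in cortex and 0 were higher (edgeR, adjusted p under 0.05), or 8.82%, against 16.3% of all 14435 genes, with 7.6% lower and 8.69% higher. At an unadjusted p under 0.05 there were 11, against 30.4% of all genes, and 20 of 34 (58.8%) were below 0, against 50.1%. Insig1 was at −0.52 ± 0.11 (edgeR, adjusted p = 0.00427), Pmvk at −0.44 ± 0.12 (edgeR, adjusted p = 0.0167) and Acat2 at −0.33 ± 0.11 (edgeR, adjusted p = 0.0378). Pmvk held 32.8 to 34.4 CPM in the 4 hippocampus libraries and 35.3 to 51.6 CPM in the 5 cortex libraries. Its groups did not overlap, as for 13.7% of all genes. Insig1 passed without each single library and under the 9 other settings. Pmvk lost the call with thinned counts (adjusted p = 0.22), with no filter (adjusted p = 0.115), and without hippocampus control 20 (adjusted p = 0.073) or cortex control 37 (adjusted p = 0.0792). Acat2 lost it without any 1 of 6 of the 9 libraries, all 4 hippocampus controls and cortex controls 20 and 38, and under 5 of 9 other settings, the mouse as a block (adjusted p = 0.0914) and DESeq2 (adjusted p = 0.0611) among them.

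Markers also differed between the tissues of control mice. Striatum markers were lower in hippocampus for 6 of 6 genes, at summed levels of 147 to 193 CPM against 753 to 1258 CPM in cortex, and choroid plexus markers were higher for 3 of 3, at 19.4 to 186 CPM against 13.2 to 22.0 CPM. Of excitatory neuron markers 3 of 5 were higher, at 2043 to 2587 CPM against 1835 to 2310.6 CPM in all, of astrocyte markers 1 of 6 was higher and of inhibitory neuron markers 1 of 3 lower. Between the tissues of GA-Camk2a mice, 3 of 4 tested striatum markers were lower in hippocampus and 2 of 2 choroid plexus markers higher. Excitatory neuron markers had 2 lower and 1 higher of 5, astrocyte markers 1 lower and 1 higher of 6, and microglia, oligodendrocyte and inhibitory neuron markers 1 lower each, of 6, 7 and 3. Their part in the tissue differences was not tested.

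By step, the control medians of hippocampus against cortex were −0.29 for early mevalonate genes, with 6 of 6 below 0, −0.25 for squalene and late sterol genes, 0.19 for fatty acid genes and 0.05 for regulators. Fdft1 was the late sterol gene with the lowest adjusted p, at −0.41 ± 0.14 (edgeR, adjusted p = 0.0565), and Scd2 the fatty acid gene, at 0.32 ± 0.11 (edgeR, adjusted p = 0.0666). The count rested on single libraries. It was 8, with 5 lower and 3 higher, without cortex control 31, where Scd2 held 511 CPM against 308 to 345 CPM in the other 4 cortex controls, and 22.7% of all genes were called in that fit. It was 1 without hippocampus control 20 (12.4% of all genes), and 2 without the library of high Rorb (11.5%).

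In the 12 GA-Camk2a libraries, 2 members were lower and 4 higher in hippocampus than in cortex (edgeR, adjusted p under 0.05), or 17.6% of 34, against 33.2% of all 13098 genes, with 15.9% lower and 17.3% higher. At an unadjusted p under 0.05 there were 10, against 43.9% of all genes, and 17 of 34 were below 0, against 50.5%. The lower members were Fdps, at −0.79 ± 0.16 (edgeR, adjusted p = 0.00137), and Pmvk, at −0.47 ± 0.11 (edgeR, adjusted p = 0.00367). Elovl6 was higher by 0.60 ± 0.17 (edgeR, adjusted p = 0.0124), Scd2 by 0.49 ± 0.08 (edgeR, adjusted p = 0.000182) and Srebf1 by 0.46 ± 0.11 (edgeR, adjusted p = 0.00489). Acaca, acetyl-CoA carboxylase, named after its values were seen, was higher by 0.44 ± 0.15 (edgeR, adjusted p = 0.0292). Its call was lost with DESeq2, without the filter, with thinned counts, without the libraries of high Rorb, and without any 1 of cortex of mice 30, 34, 35 or 41 or hippocampus of mice 16 or 35. Scd2 held 492 to 626 CPM in hippocampus and 322 to 413 CPM in cortex, with no overlap, as for 13% of all genes.

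The GA-Camk2a medians of hippocampus against cortex were −0.33, −0.15, 0.13 and 0.20 for early mevalonate, late sterol, fatty acid and regulator genes. The late sterol gene with the lowest adjusted p was again Fdft1, at −0.25 ± 0.11 (edgeR, adjusted p = 0.0953). With the mouse as a block 2 members were lower and 5 higher, the addition being Scd1 (adjusted p = 0.0321), against 32.9% of all genes. Without the libraries of high Rorb, Fdps, Pmvk, Scd2 and Elovl6 passed, against 21.4% of all genes, with Elovl6 at 0.99, and Srebf1 (adjusted p = 0.0863) and Acaca did not. Elovl6 lost the call without hippocampus of mouse 34 (adjusted p = 0.0506). The 2 tissue comparisons differ by the interaction tested above, in which no member passed.

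**Figure D4:**
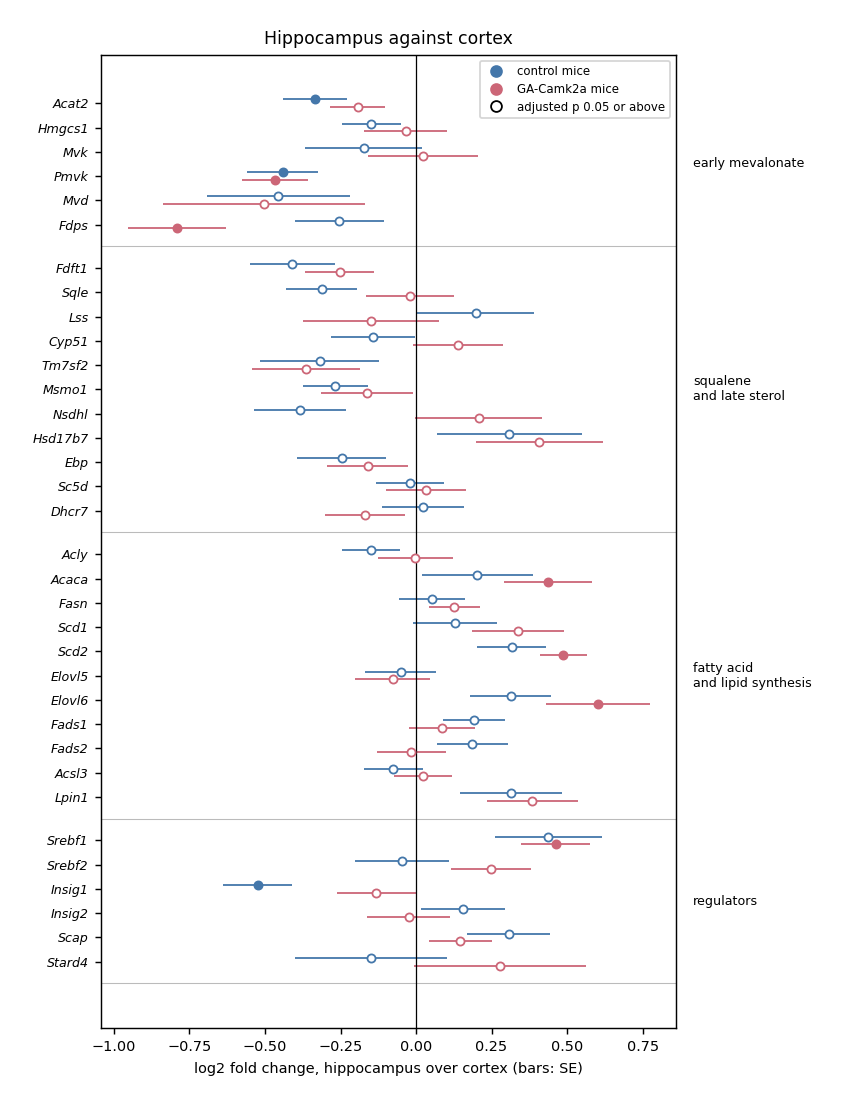
Log2 fold change of the 34 tested members in hippocampus against cortex (x axis) with standard errors, in control mice (blue) and GA-Camk2a mice (red), grouped by step. Filled points have an adjusted p under 0.05, and early mevalonate genes lie mostly left of 0 while Scd2, Elovl6 and Srebf1 lie to the right.

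A list of 34 other genes of the same pathways was counted in the same way. In cortex 2 of 31 tested passed, both higher (6.45%, against 12.5% of all genes), and in hippocampus 3 of 31, 1 higher and 2 lower (9.68%, against 10.9%). The cortex genes were Elovl1, an elongase of very long chains, which rose by 0.60 ± 0.14 (edgeR, adjusted p = 0.00538), and Mid1ip1, an activator of acetyl-CoA carboxylase, which rose by 0.44 ± 0.11 (edgeR, adjusted p = 0.0102). Elovl1 held 15.3 to 27.3 CPM in control and 28.1 to 36.0 CPM in GA-Camk2a cortex, without overlap, as for 6.17% of all genes. In hippocampus Gpam, the acyltransferase that starts glycerolipid synthesis, rose by 0.88 ± 0.14 (edgeR, adjusted p = 0.000705). It held 21.4 to 27.3 CPM in controls and 31.8 to 59.4 CPM in GA-Camk2a mice. Acsl4, which activates polyunsaturated fatty acids, fell by 0.53 ± 0.10 (edgeR, adjusted p = 0.00331), and Elovl4, another elongase of very long chains, fell by 0.46 ± 0.10 (edgeR, adjusted p = 0.00957). The groups of these 3 hippocampus genes did not overlap, as for 9.62% of all genes. The list had 0 of 31 genes past the interaction test (edgeR), with 1 at an unadjusted p under 0.05.

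Between the tissues, 3 of 31 genes of that list were higher in hippocampus of control mice and 0 lower (9.68%, against 16.3% of all genes). They were Thrsp, a lipogenic regulator, at 0.75 ± 0.11 (edgeR, adjusted p = 0.000177), Elovl7 at 0.71 ± 0.19 (edgeR, adjusted p = 0.0145) and Mbtps1, the protease that makes the first cleavage of SREBP, at 0.39 ± 0.13 (edgeR, adjusted p = 0.0421). In GA-Camk2a mice 9 of 30 passed, 7 higher and 2 lower (30%, against 33.2% of all genes). Elovl7, Mylip, Gpam, Lpin2 and Thrsp were among those higher in hippocampus, by 0.63 to 1.02, and Mid1ip1 and Tecr, the reductase of the elongation cycle, were lower, at −0.46 ± 0.13 and −0.38 ± 0.09.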

How the data were processed

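Prime-seq libraries of cortex and hippocampus were demultiplexed and counted per gene by the authors with zUMIs on the mouse genome mm39, to which a GFP sequence was added. The processing notes also name FastQC 0.11.8, cutadapt 1.12, STAR and DESeq2 1.44. The deposited values are raw counts per gene and library. Whether they are molecules or reads, the annotation release and the use of introns and strand are not given in the sources used here. For reads, technical error would exceed counting error. Symbols came from a GENCODE annotation of GRCm38, which named 43308 of 64361 rows holding 96.1% of counts. The GFP row (3.4e-05% of counts) was kept out of library sizes and tests, and 0 count columns were unused.

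Groups, mouse numbers and batches were taken from the labels. Depth per library was 1048201 to 5888102 counts, with controls deepest in hippocampus. Each comparison was fitted on all genes with edgeR 4.0.16 (R 4.3.3), TMM scaling, filterByExpr with a minimum count of 10, a batch term and the quasi-likelihood F-test. The study's methods name DESeq2 with no covariates, which was run as an alternative. P-values were adjusted by Benjamini-Hochberg over all genes tested, with a threshold of 0.05. Standard errors are the fold change over the square root of F. On simulated data, a log2 change of 0.5 was called for 33.3% of changed genes in cortex, 20.2% in hippocampus and 4.08% in the interaction. It was called for 25.5% between tissues of control mice and 15.6% between tissues of GA-Camk2a mice. A change of 1 was called for 44.9% in the interaction and 68.9% to 85.3% in the other comparisons. A member that did not pass was thus not shown to be unchanged. Alternatives were RLE and upper quartile scaling, no filter, DESeq2 1.42.0, limma-voom 3.58.1, no batch term, each batch alone, counts thinned to the smallest library, 1 fit over all libraries, the mouse as a block, and leaving out each library.

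The mouse number pairs the tissues because the titles give both libraries of a mouse 1 number. As a check, deviations of the 2 libraries from their group means correlated at −0.134 to 0.208 over 10 mice, and 3 of 10 matched their own number best. With correlations this low, the check does not settle whether the pairing holds. Members, lists and tests were chosen with earlier results of these data known. Every member was accounted for, and all libraries were given for members past the threshold in a genotype comparison, for the lowest interaction p, and for Srebf1, Srebf2 and Insig1. In each comparison the member of each step with the lowest adjusted p was named, and between tissues the 3 largest changes in each direction among members past the threshold. Other members were named to account for all. Motifs were searched on both strands of 32851 RefSeq windows. Of the list of other pathway genes past the threshold, only some are named, and some results are not reported here.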

Additional observations from a re-analysis of the deposited data

Results flagged for a closer look

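The values of 7 members in the 4 groups were checked for a single library far from the rest of its group, and 1 of 28 groups had one. Srebf2 in control hippocampus was at 39.3 CPM in mouse 31, while the nearest other control was at 30.2 CPM, a gap of 0.879 of the range over 4 libraries. Chance gives such a gap in about 1 of 20 groups. The Srebf2 comparison of hippocampus passed the threshold neither with this library nor without it. No member passed the test of a difference in genotype effect between the tissues.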

How the results depend on the processing

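In cortex, where 4 members were lower and 1 higher, the main fit called 12.5% of all genes. The count was 3 (2 lower) without the batch term, which called 9.8% of all genes. It was 1 (0 lower) in batch 1 alone (6.24% of all genes) and 1 (1 lower, 0 higher) in batch 2 alone (1.95%). Without 1 library the count ranged from 2 to 7 (lower 1 to 6, higher 1 to 1), in fits that called 7.97% to 12.1% of all genes. It was 3 without controls 11, 37 or 38 or GA-Camk2a mice 16, 23, 30 or 34. It was 2 without control 31 (7.97%) and 7 without GA-Camk2a mouse 41 (11%). In hippocampus, where 1 was lower and 1 higher, the main fit called 10.9% of all genes. The count was 1 (0 lower) with upper quartile scaling (10.8% of all genes), thinned counts (8.29%) and batch 2 alone (4.96%). It was also 1 (0 lower) with all 21 libraries in 1 fit (12.1%) and without the libraries of high Rorb (7.49%). In batch 1 alone it was 0 (0 lower, 0 higher), against 0.72% of all genes. Without the filter it was 4 (3 lower), against 3.12% of 59346 genes. Without 1 library the count ranged from 1 to 3 (lower 0 to 2), in fits that called 6.52% to 12% of all genes. It was 1 without controls 20 or 31 or GA-Camk2a mice 16, 23, 34 or 35 and 3 without GA-Camk2a mice 30 or 41. The interaction count was 1 (1 lower) without the filter, where 0.249% of 63871 genes were called. In control mice the main fit between tissues called 16.3% of all genes. The tissue count was 8 (5 lower, 3 higher) with limma-voom (23.7% of all genes) and 1 (1 lower) with thinned counts (13%). It was 1 lower and 1 higher without the filter (4.53% of 56942 genes). Without 1 library it ranged from 1 to 8 (lower 1 to 5, higher 0 to 3), in fits that called 11.5% to 22.7% of all genes. In GA-Camk2a mice the tissue count ranged from 5 to 7 (lower 2 to 3, higher 3 to 5) without 1 library. These fits called 27.3% to 32.1% of all genes, against 33.2% in the main fit. Without the libraries of high Rorb 2 were higher, in a fit that called 21.4% of all genes. The mouse as a block gave 2 lower and 0 higher in controls (13.9% of all genes) and 2 lower and 5 higher in GA-Camk2a mice (32.9%). It gave 0 in the interaction (0.475%). The calls it changed were those of Acat2 and Scd1.

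Step medians moved in cortex regulators to 0.16 (thinned counts) and 0.20 (batch 2 alone), in hippocampus regulators to 0.16 (thinned counts), in hippocampus early mevalonate genes to −0.42 (no filter, with Idi1) and in late sterol genes between tissues of GA-Camk2a mice to 0.03 (without high Rorb). Signs reversed in hippocampus members that had not passed. Insig1 was 0.02 with thinned counts and 0.02 in batch 2 alone, Srebf2 0.17 with thinned counts and 0.08 in batch 1 alone, and Elovl6 0.02 without high Rorb. Without 1 library Srebf2 ranged from −0.10 to 0.02 and Nsdhl from −0.14 to 0.05. The causes were not tested. Without the filter the median of all genes moved to 0.12 and 0.14 in the tissue comparisons. With few counts per library, members under about 10 CPM (Mvd, Stard4, Idi1) were measured with the least precision.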
